A study of Homo sapiens with 4 samples.

Results

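Expression of 10 genes of the unfolded protein response was compared between LASCPC-01 cells treated with ketotifen and with PBS. They were taken by symbol from the table of 16376 genes, and all 10 have a row: ERN1, ATF6, XBP1, ATF4, DDIT3, CALR, PDIA4, HYOU1, MANF and HERPUD1. The LASCPC-01 line models neuroendocrine prostate cancer and was made from human prostate epithelium by transformation with N-Myc and activated AKT1, so both groups carry those alterations; the labels give the genotype as WT. One group received PBS, the vehicle, and the other ketotifen, an H1 antihistamine and mast cell stabiliser, with 2 libraries per group, all labelled day 3. The sources used here give neither the dose of ketotifen nor whether the libraries came from separate cultures, so the spread behind each p-value may be a technical one. Levels are FPKM, fragments per kilobase of gene length scaled to the mapped total of the library.

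The unfolded protein response adjusts the folding capacity of the endoplasmic reticulum (ER) to its load of new proteins. The membrane sensor IRE1, encoded by ERN1, cuts the XBP1 mRNA so that an active transcription factor is made. ATF6 is released from the membrane by proteolysis in the Golgi, and the kinase PERK, encoded by EIF2AK3, slows translation while favouring that of ATF4, which in turn induces DDIT3 (CHOP). The targets include chaperones, folding enzymes and parts of the degradation machinery that returns misfolded proteins to the cytosol. Secretory cells, among them neuroendocrine cells, depend on this system. The table has one value per gene, so XBP1 splicing, ATF6 cleavage and translation of ATF4 were not measured.

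The 10 genes differed little between ketotifen and PBS. None passed the test (0 of 10 at an adjusted p under 0.05 in limma, where 0.123% of all 10586 tested genes did, 0.00945% higher and 0.113% lower with ketotifen), and 1 of 10, DDIT3, had an unadjusted p under 0.05 against 20.4% of all tested genes. A count-based test, limma's voom on whole reads recovered from the FPKM steps, also called 0 of 10, where it called 7.65% of 10553 genes, and 0 of the 10 had an unadjusted p under 0.05 there, against 24% of all genes. The median absolute difference between the groups was 0.045 on the log2(FPKM + 1) scale over the 10 genes and 0.089 over all tested genes. Within groups the 10 genes also varied less than all tested genes. The PBS libraries differed by a median of 0.068 over the 10 genes and 0.082 over all tested genes. For the ketotifen libraries these medians were 0.042 and 0.062. All 10 passed the filter of a mean of at least 1 FPKM.

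The libraries held 29332988 to 32658207 recovered reads. Read sampling alone would give a chi-square near 1 per gene between libraries of a group. It was 9.93 for the PBS pair and 4.72 for the ketotifen pair, so none was counted as a copy of another. PBS library B stood farther from the ketotifen libraries (26.3 and 21.8) than PBS library A did (10.8 and 9.79). Of 9 markers of the line and of neuroendocrine cells 5 reached a mean of 1 FPKM (MYCN, INSM1, NCAM1, ENO2 and UCHL1), with a summed level of 905 and 897 FPKM under PBS and 880.1 and 890.04 under ketotifen, while SYP, CHGA, NEUROD1 and FOXA2 stayed below it. The sum is made of unlike parts: voom called MYCN (12.9% lower with ketotifen, adjusted p = 0.00795), NCAM1 (14.3% lower, 0.00691) and ENO2 (37.4% lower, 0.0437), limma called 0 of the 9, and UCHL1 was 9.54% higher without a call. The part of these markers in the results was not tested. The summed luminal prostate markers (6 genes) were 17.0 and 15.5 FPKM under PBS against 17.3 and 15.7. The summed fibroblast markers (6 genes, PDGFRB listed at 0 in all libraries) were 2.85 and 3.14 FPKM under PBS against 2.56 and 2.16, endothelial markers (4 genes) 0.220 and 0.218 against 0.188 and 0.126, and immune markers (5 measured, mostly CD68) 2.89 and 4.14 against 3.05 and 3.18 FPKM.

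An exact match to an ER stress element lies in the 250 bases before the RefSeq start (build GRCh38.p14) of 4 of the 10 genes, XBP1, CALR, HERPUD1 and HYOU1. These stretches are shown because the elements are the recognised binding sites of the response's transcription factors, and because HSPA5 and SDF2L1, the genes with the largest differences among those with a match, carry the same patterns. Each runs 5′ to 3′ on the strand of the gene, with matched letters in capitals.
XBP1, chr22:28800593-28800631, minus strand: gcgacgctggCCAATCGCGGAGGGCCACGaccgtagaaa
CALR, chr19:12938374-12938412, plus strand: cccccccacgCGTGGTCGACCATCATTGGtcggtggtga
HERPUD1, chr16:56931956-56932045, plus strand: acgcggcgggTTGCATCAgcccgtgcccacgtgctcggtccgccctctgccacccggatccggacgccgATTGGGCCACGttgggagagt
HYOU1, chr11:119057264-119057403, minus strand: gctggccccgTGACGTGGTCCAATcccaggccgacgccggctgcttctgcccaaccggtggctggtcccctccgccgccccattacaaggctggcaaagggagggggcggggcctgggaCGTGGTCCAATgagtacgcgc
HSPA5, chr9:125241381-125241419, minus strand: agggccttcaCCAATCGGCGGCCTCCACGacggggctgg
SDF2L1, chr22:21642104-21642134, plus strand: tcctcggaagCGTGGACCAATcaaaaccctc

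Motifs were searched on both strands of windows from 250 bases before to 50 after each start. The ER stress element ERSE, which is CCAAT and CCACG with 9 bases of any kind between them, was found in 0.0769% of 35116 windows, and among the 10 genes in XBP1 and, on the opposite strand, CALR. ERSE-II, which is ATTGG and CCACG with 1 base of any kind between them, was found in 0.0541% of windows, and among the 10 genes in HERPUD1 and in HYOU1, which has it at 2 places. The UPR element TGACGTGG was found in 0.729% of windows and among the 10 genes only in HYOU1, where it overlaps the first ERSE-II. The C/EBP-ATF element TGATGCAA was found in 0.866% of windows and among the 10 genes only in HERPUD1. A match is a run of letters and was not tested for binding.

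**Figure D1:**
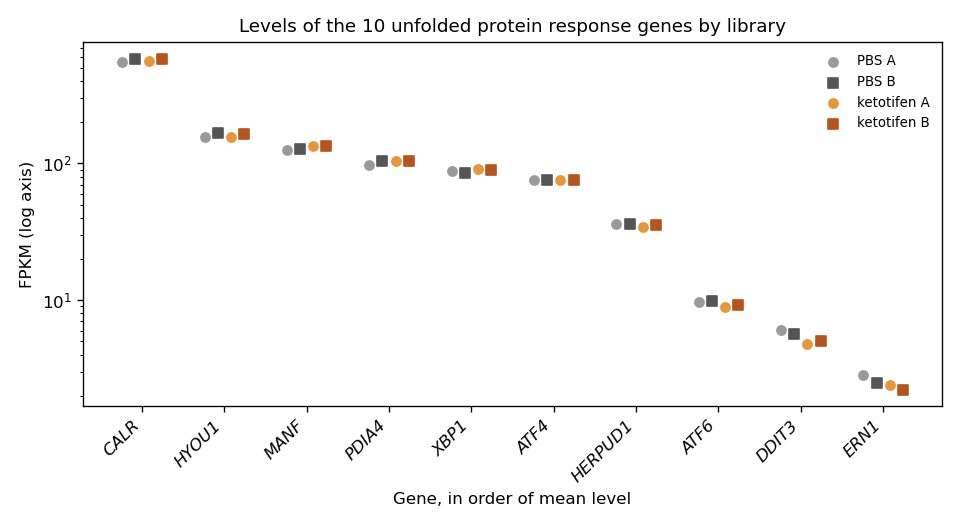
FPKM on a log axis for the 10 genes in order of mean level, with 1 point per library (2 PBS, 2 ketotifen). Levels run from a mean of 567 FPKM for CALR to 2.49 for ERN1, and the 4 points of a gene lie close together compared with the gaps between most genes.

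On the deposited FPKM scale the 4 folding genes had the highest levels and the sensors some of the lowest. By mean FPKM over the 4 libraries the order was CALR (567), HYOU1 (161), MANF (130.0), PDIA4 (102), XBP1 (88.3), ATF4 (75.7), HERPUD1 (35.6), ATF6 (9.44), DDIT3 (5.41) and ERN1 (2.49). In each neighbouring pair the lowest library of the first gene was above the highest library of the next, so the order was the same in every library. CALR lay above 99.3% of tested genes, and ERN1 above 12.1%. This order rests on the gene lengths used by the authors, which can be worked out from the FPKM steps up to a common factor of reads and length. For ATF4 the implied length is 7713 bases, longer than the 2991 bases that the gene spans in GENCODE v29, where its exons cover 2514 bases. The recovered reads of ATF4 (19268 and 20384 with PBS, 21344 and 19638 with ketotifen) are all even. They and the length were multiplied by a factor to make the length whole. With GENCODE exon lengths for all 10 genes ATF4 would have a level of 232 FPKM and move from rank 6 to rank 2, behind CALR. MANF, with 49.6 FPKM, would move from rank 3 to rank 6, behind XBP1. Without the factor the implied length of ATF4 and its 232 FPKM would both be lower. Differences between groups within a gene do not depend on its length, apart from the pseudocount.

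Differences are given as ketotifen minus PBS on the log2(FPKM + 1) scale, with the standard error after the ± sign, unless voom is named, whose scale is log2 of reads over the library total. Of the sensors, ERN1 encodes IRE1 and lies on chromosome 17 (64039142 to 64130819 in GRCh38, GENCODE v29). It had 2.86 and 2.48 FPKM in PBS libraries A and B, and 2.41 and 2.22 in ketotifen libraries A and B. The ketotifen libraries were the lower ones, but the gap between the PBS libraries (0.15 on the log2 scale) was as wide as the difference between the groups, -0.15 ± 0.09 (95% interval -0.35 to 0.06; limma adjusted p = 0.388). Leaving out PBS library A gave -0.072, and leaving out PBS library B gave -0.218. ATF6 (chromosome 1, 161766294 to 161964070) had 9.75 and 9.82 FPKM with PBS and 8.94 and 9.26 with ketotifen. Both ketotifen libraries were below both PBS libraries, with a difference of -0.09 ± 0.06 that did not pass (limma adjusted p = 0.425). EIF2AK3, the gene of the PERK kinase, had 5.37 and 5.35 FPKM against 5.21 and 4.57 (difference -0.11 ± 0.08, limma adjusted p = 0.445).

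Among the transcription factors ATF4 hardly varied at all. XBP1 (chromosome 22, 28794555 to 28800597) had 88.7 and 85.3 FPKM with PBS and 90.4 and 88.8 with ketotifen, so ketotifen library B lay just above PBS library A. The difference was 0.04 ± 0.05 (95% interval -0.08 to 0.16; limma adjusted p = 0.668). ATF4 (chromosome 22, 39519695 to 39522685) had 76.0 FPKM in both PBS libraries and 75.4 in both ketotifen libraries, a difference of -0.01 ± 0.05 (95% interval -0.13 to 0.10; limma adjusted p = 0.914). Its groups did not overlap, although they were only 0.811% apart, and ATF4 and XBP1 have 4 and 1 annotated pseudogenes in GENCODE v29, with which reads could be shared. DDIT3 (chromosome 12, 57516588 to 57521737), a transcription factor linked to cell death under lasting ER stress, had 6.10 and 5.67 FPKM with PBS and 4.80 and 5.06 with ketotifen. Its mean was 16.3% lower with ketotifen, the widest gap of the 10 in percent, and the difference was -0.22 ± 0.07 (95% interval -0.38 to -0.05; unadjusted p = 0.0186, limma adjusted p = 0.175).

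Depth limits the DDIT3 value. Its recovered reads were 182 and 179 with PBS and 160 and 155 with ketotifen, where counting alone gives an error of 7.41% to 8.03% per library, and voom, which takes this into account, gave -0.25 ± 0.20 (95% interval -0.67 to 0.16; voom adjusted p = 0.469). In GENCODE v29 its exons also share 518 bases with other genes, among them MARS and MBD6 on the opposite strand; whether the counting used strand is not given in the sources used here. The counting error of the other genes was lower, from 0.504% for CALR to 3.5% for ERN1 per library.

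**Figure D2:**
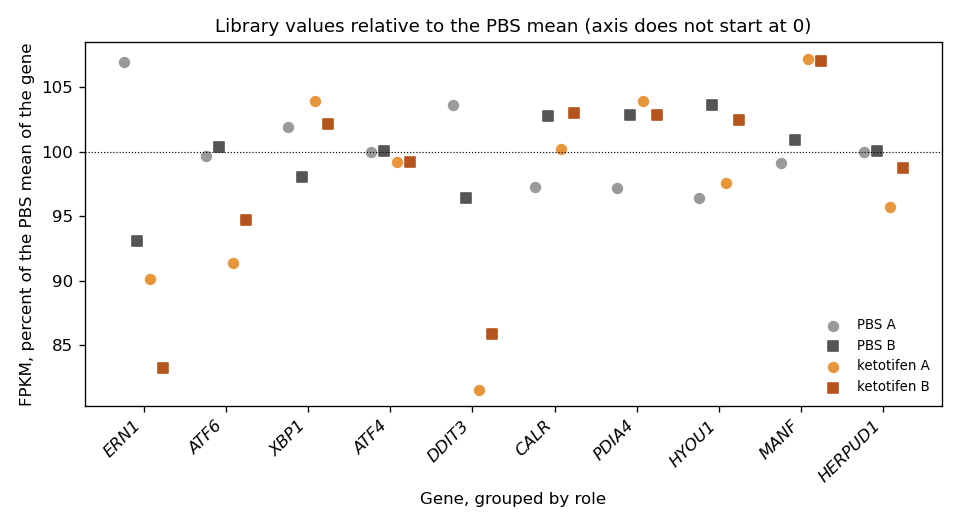
FPKM of each library as a percent of the gene's PBS mean, for the 10 genes in order of role (sensors, transcription factors, folding genes, degradation), 1 point per library, on an axis that does not start at 0. The ketotifen libraries lie below both PBS libraries in ERN1, ATF6, ATF4, DDIT3 and HERPUD1, above both in XBP1, PDIA4 and MANF, and among them in CALR and HYOU1.

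Among the folding genes CALR and HYOU1 overlapped between the groups. CALR, the calcium-binding lectin chaperone calreticulin on chromosome 19 (12938578 to 12944489), had 547 and 578 FPKM with PBS and 564 and 580 with ketotifen. The lowest and the second highest value were both PBS libraries, so the groups overlapped, with a difference of 0.02 ± 0.06 (limma adjusted p = 0.842). HYOU1, an ER-resident relative of HSP70 that helps HSPA5 exchange its nucleotide, lies on chromosome 11 (119044189 to 119057202). It had 155 and 167 FPKM with PBS and 157 and 165 with ketotifen, also overlapping, and means of 160.8 and 160.9 FPKM. Its difference was 0.00060 ± 0.06 (95% interval -0.13 to 0.13; limma adjusted p = 0.996). In GENCODE v29 the exons of HYOU1 and CALR share 666 and 270 bases with antisense genes.

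PDIA4 and MANF were somewhat higher with ketotifen without passing. PDIA4, a protein disulfide isomerase that forms and rearranges disulfide bonds, lies on chromosome 7 (149003062 to 149028641) and had 97.8 and 103.47 FPKM with PBS and 104.57 and 103.51 with ketotifen. PBS library B was nearly level with the ketotifen libraries, PBS library A was the low one, and the difference was 0.05 ± 0.05 (limma adjusted p = 0.633). MANF, a small ER protein secreted under stress that stabilises HSPA5 with its clients, lies on chromosome 3 (51385047 to 51389397) and had 124 and 127 FPKM with PBS against 135 and 134 with ketotifen. This was the widest positive difference of the 10, 0.10 ± 0.05 (95% interval -0.02 to 0.21; limma adjusted p = 0.301), or 7.10% on the mean.

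HERPUD1, an ER membrane protein that organises the degradation complex, lies on chromosome 16 (56932048 to 56944863). It had 36.1 FPKM in both PBS libraries and, slightly lower, 34.5 and 35.6 with ketotifen. The difference was -0.04 ± 0.05 (95% interval -0.16 to 0.08; limma adjusted p = 0.698).

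**Figure D3:**
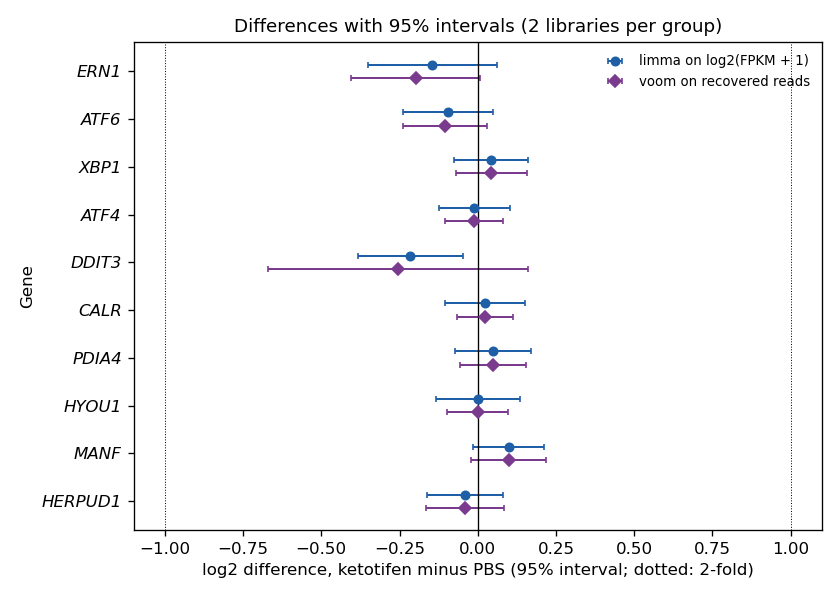
Difference between ketotifen and PBS for the 10 genes with 95% intervals, from limma on log2(FPKM + 1) (circles) and from voom on recovered reads (diamonds); dotted lines mark a change of 2-fold. All intervals lie inside the dotted lines, and the widest is that of DDIT3 in voom (-0.67 to 0.16).

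The intervals rest on the spread between 2 libraries per group, which may be a technical one. They may therefore not bound a change across separate cultures. In limma every interval of the 10 genes lay between -0.38 (DDIT3) and 0.21 (MANF) on the log2(FPKM + 1) scale, and in voom between -0.67 and 0.22, so a change of 2-fold was outside all of them. The groups did not overlap in 8 of the 10 genes, 3 of them higher and 5 lower with ketotifen. Over all tested genes the groups did not overlap in 54.4%, higher in 23.2% and lower in 31.2%, so with 2 against 2 libraries such gaps were common. The difference between the groups was larger than both within-group differences in 4 of the 10 genes (40.0%) and in 39.9% of all tested genes. Leaving out any library, changing the pseudocount, the filter or the scaling, or using voom called none of the 10 genes. A fit without a library takes its spread from the group left whole and holds none from the other group.

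The rest of the pathway was read from 6 lists with 152 genes in all, of which 143 were tested. In limma 0 of the 143 passed the threshold, with 33 at an unadjusted p under 0.05 (23.1%, against 20.4% of all tested genes). Voom called 13 of the 143 higher and 4 lower, against 3.72% of all genes higher and 3.92% lower. The median difference over the 143 genes was 0.0033, and -0.018 over all tested genes. Of the usual readouts HSPA5, HSP90B1, EIF2AK3 and DNAJB9, limma called none in the main setting and voom called only HSPA5. The voom adjusted p was 0.844 for HSP90B1, 0.456 for EIF2AK3 and 0.157 for DNAJB9. The limma difference of HSPA5 was 0.219 and 0.27 without PBS library A or B. It was 0.224 and 0.265 without ketotifen library A or B.

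**Figure D4:**
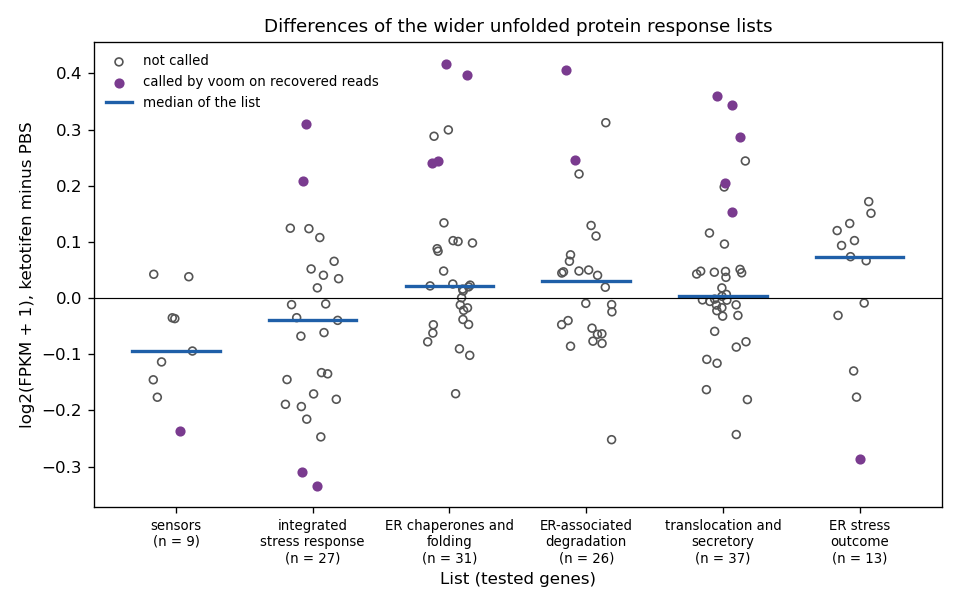
Difference between ketotifen and PBS on the log2(FPKM + 1) scale for each tested gene of the 6 lists (points), with list medians (bars); filled points were called by voom on recovered reads at an adjusted p under 0.05. Medians lie between -0.09 and 0.07, and filled points are all positive in the folding, degradation and translocation lists.

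In the list of ER chaperones and folding enzymes (31 tested) limma called 0. At an unadjusted p under 0.05 there were 7 (22.6%, against 20.4% of all tested genes). Voom called 4 higher and 0 lower, against 3.72% higher and 3.92% lower over all genes. HSPA5 (BiP), the main ER chaperone and the inhibitor of all 3 sensors, had 166 and 172 FPKM with PBS and 203 and 197 with ketotifen. Both ketotifen libraries were well above both PBS libraries, with a difference of 0.24 ± 0.05 (95% interval 0.13 to 0.36; limma adjusted p = 0.1003, voom adjusted p = 0.00229). The voom call for HSPA5 was lost without ketotifen library A or B, while the voom difference stayed at 0.225 and 0.266 against 0.246 with all libraries. SDF2L1, a cofactor of HSPA5, had 83.7 and 75.5 FPKM against 104 and 106 (difference 0.40 ± 0.06, limma adjusted p = 0.0713, voom adjusted p = 0.00144). Its voom difference lay between 0.328 and 0.475 when 1 library was left out. With a mean of at least 5 FPKM as the filter limma called SDF2L1 too (adjusted p = 0.0375). Its relative SDF2 had 13.1 and 10.8 FPKM against 16.5 and 16.1 (limma adjusted p = 0.1003, voom adjusted p = 0.0173), and the prolyl isomerase PPIB was the fourth.

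HSP90B1 gave a small value and DNAJB9 one that rested on 1 library. HSP90B1 (GRP94), the ER member of the HSP90 family, had 780.0 and 815 FPKM with PBS and 813 and 799.6 with ketotifen. The groups overlapped, and the difference was 0.02 ± 0.06 (limma adjusted p = 0.893). DNAJB9, a co-chaperone that returns HSPA5 to IRE1 and a classic XBP1 target, had 5.0 and 3.56 FPKM against 5.45 and 5.32, a difference of 0.29 ± 0.12 (limma adjusted p = 0.233). PBS library B alone was low there, with 298 recovered reads against 396 in PBS library A. Without it the limma difference was 0.09, and without PBS library A it was 0.486. The median of this list was 0.022, and it was -0.030 once library sums were made equal and -0.0051 after quantile normalization.

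The list of the integrated stress response, the ATF4 branch with upstream kinases such as EIF2AK4, had 27 tested genes. Limma called 0, with 9 at an unadjusted p under 0.05 (33.3%, against 20.4% of all tested genes). Voom called 2 higher and 2 lower, against 3.72% higher and 3.92% lower over all genes. CHAC1, a glutathione-degrading enzyme induced by ATF4, had 6.11 and 6.01 FPKM with PBS and 4.55 and 4.65 with ketotifen (difference -0.33 ± 0.07; limma adjusted p = 0.1003, voom adjusted p = 0.0278). STC2, the secreted glycoprotein stanniocalcin 2, had 24.7 and 22.9 FPKM against 19.8 and 18.2 (limma adjusted p = 0.102, voom adjusted p = 0.00548). In both genes the ketotifen libraries were the lower pair. The voom call was lost for CHAC1 without ketotifen library A or B, and for STC2 without ketotifen library B. The voom differences were then -0.382 and -0.412 for CHAC1 (-0.398 with all libraries) and -0.261 for STC2 (-0.321). SLC3A2, the heavy chain of amino acid transporters, was higher in voom, with 78.2 and 63.6 FPKM against 88.5 and 86.9 (limma adjusted p = 0.142, voom adjusted p = 0.0128). Its limma difference was 0.31, but 0.164 without the low PBS library B and 0.457 without PBS library A. PSAT1, an enzyme of serine synthesis, was the other gene called higher. Genes of this list thus lay on both sides of 0, with 10 positive, 17 negative and a median of -0.040. Over all tested genes 4691 were positive and 5895 negative, with a median of -0.018.

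The list of sensors, their processing enzymes, XBP1 and related factors (9 tested) had a median of -0.09, with 7 negative and 2 positive values. The positive ones were XBP1 (0.04) and CREB3 (0.04). Of all 10586 tested genes 5895 were negative and 4691 positive. Limma called 0 of the 9, with 2 at an unadjusted p under 0.05 (22.2%, against 20.4% of all tested genes). The median was -0.036 without ketotifen library B and -0.141 with equal library sums. Voom called 1 of the 9 lower, against 3.92% of all genes. The gene was ATF6B, the ATF6 paralogue, at 52.7 and 62.0 FPKM with PBS and 48.3 and 48.5 in the ketotifen pair (limma adjusted p = 0.166, voom adjusted p = 0.0295). PBS library B stood apart from the other 3 libraries in ATF6B, and without it the limma difference was -0.12 instead of -0.24. CREB3L2, a related membrane-bound factor, had 11.4 and 12.4 FPKM against 9.89 and 10.9 (limma adjusted p = 0.233).

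In ER-associated degradation (26 tested) limma called 0, with 4 at an unadjusted p under 0.05 (15.4%, against 20.4% of all tested genes). Voom called 2 higher and 0 lower, against 3.72% higher and 3.92% lower over all genes. SELENOK, a selenoprotein of the degradation complex, had 8.94 and 7.78 FPKM with PBS and 11.3 and 11.4 with ketotifen (difference 0.41 ± 0.08; limma adjusted p = 0.0968, voom adjusted p = 0.0338). VCP, the ATPase that pulls substrates out of the membrane, had 120.1 and 109 FPKM against 137 and 136 (difference 0.25 ± 0.06; limma adjusted p = 0.112, voom adjusted p = 0.00425). SELENOS, the partner of SELENOK, had 8.48 and 9.04 FPKM against 11.7 and 10.6 (limma adjusted p = 0.1055, voom adjusted p = 0.0553). All 3, named for their small p, had both ketotifen libraries above both PBS libraries. HERPUD1 of the same complex had both below, with a mean 2.79% lower. In this list 8 of 26 genes had both above and 6 had both below. Over all tested genes the shares were 23.2% and 31.2%. The median of the list was 0.030, and it was -0.020 with equal library sums and -0.0061 without PBS library A.

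In the list of translocation and secretory genes (37 tested) limma called 0. At an unadjusted p under 0.05 there were 8 (21.6%, against 20.4% of all tested genes). Voom called 5 higher and 0 lower, against 3.72% higher and 3.92% lower over all genes. SPCS2, a signal peptidase subunit, had 16.9 and 20.7 FPKM with PBS and 23.8 and 24.7 in the ketotifen pair (limma adjusted p = 0.115, voom adjusted p = 0.00874). OSTC, a subunit of the oligosaccharyl transferase, had 30.8 and 29.6 FPKM against 40.3 and 34.1 (limma adjusted p = 0.135, voom adjusted p = 0.0449). The limma difference of OSTC was 0.29, and 0.171 without ketotifen library A; that of SPCS2 was 0.36, and 0.221 without PBS library A. The others called by voom were SEC61A1, SEC61B and SSR4, parts of the translocation channel and its associated complex. SEC61G, the smallest channel subunit, had 52.6 and 52.1 FPKM against 60.003 and 60.3, and was not called (limma adjusted p = 0.118, voom adjusted p = 0.215). The median of the list was 0.0033, and it was -0.048 with equal library sums, -0.018 after quantile normalization, -0.0043 without PBS library A and -7.8e-05 when PBS library B was left out.

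The list of outcomes of ER stress (13 tested) had a median of 0.07. Limma called 0, with 3 at an unadjusted p under 0.05 (23.1%, against 20.4% of all tested genes). Voom called 1 lower and 0 higher, against 3.92% lower and 3.72% higher over all genes. The median was 0.028 with equal library sums and 0.029 with no filter. The gene called was TXNIP, an inhibitor of thioredoxin, with 45.8 and 47.6 FPKM under PBS and 39.1 and 37.1 under ketotifen (difference -0.29 ± 0.06; limma adjusted p = 0.0968, voom adjusted p = 0.00387). BLOC1S1, whose mRNA is a known substrate of IRE1 decay, had 47.0 and 46.7 FPKM against 53.6 and 52.2 (difference 0.17 ± 0.05; limma adjusted p = 0.148). BCL2L11, the pro-apoptotic protein BIM, had 11.9 and 12.6 FPKM against 10.7 in both ketotifen libraries (limma adjusted p = 0.188).

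**Figure D5:**
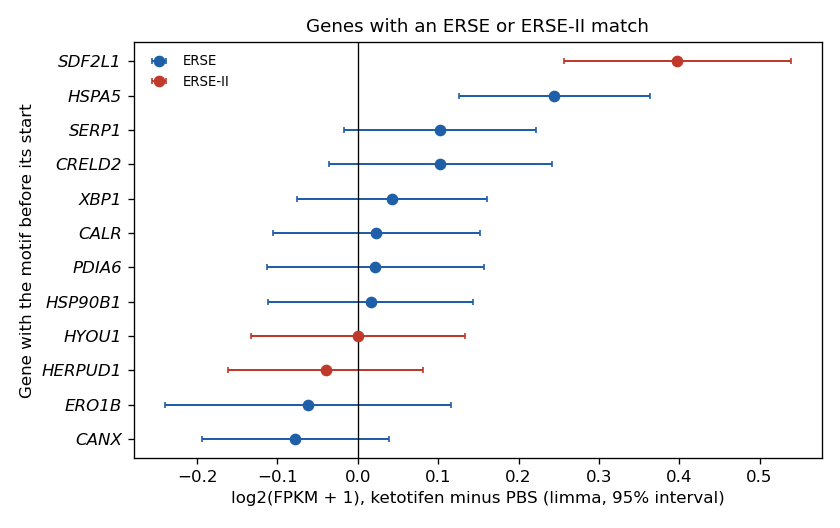
Difference between ketotifen and PBS with 95% intervals (limma on log2(FPKM + 1)) for the 12 genes of the lists with an ERSE or ERSE-II match before their start. SDF2L1 (0.40) and HSPA5 (0.24) have intervals above 0, and the other 10 intervals include 0.

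Most list genes with an ER stress element had small differences. Of 132 list genes with a promoter window 12 had an ERSE or ERSE-II match upstream of the start, and in limma 0 of these 12 passed (2 had an unadjusted p under 0.05), with a median of 0.022 against 0.0056 for the 114 tested list genes with a window and no match. At an unadjusted p under 0.05 the limma shares were 16.7% of the 12 and 25.4% of the 114. Voom called 2 of the 12 higher, HSPA5 and SDF2L1, and 0 lower. It called 11 of the 114 higher and 4 lower, and 3.72% of all genes higher and 3.92% lower. XBP1, CALR, HERPUD1 and HYOU1, whose elements are printed above, had differences of 0.04, 0.02, -0.04 and 0.00060. CRELD2, SERP1, PDIA6, HSP90B1, ERO1B and CANX, the others with a match, had differences between -0.08 (CANX) and 0.10 (CRELD2 and SERP1). The ERSE-II pattern, with a different free base in each gene, thus stood upstream of the widest difference of the 12, in SDF2L1, and of the narrowest, in HYOU1.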

How the data were processed

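RNA was measured in 4 libraries, 2 per group. The authors deposited 1 FPKM value per gene and library; fastp, HISAT2, HTSeq and the build GRCh38 are named in the submitters' processing notes, without versions or roles. Per the labels' protocols the kit was stranded and selected mRNA, and reads were paired-end. Columns name the group and carry letters that were not matched to the labels' replicate numbers.

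On log2(FPKM + 1) of the 10586 genes whose mean reached 1 FPKM, groups were compared two-sided in limma 3.58.1 (R 4.3.3; spread fitted as a trend on level), called at a Benjamini-Hochberg adjusted p under 0.05. Whole reads were recovered from the FPKM steps (Python 3.11.15) for 99.7% of these genes, within 0.05 reads; 0 of 484 decoy genes gave whole reads. The scaling total of PBS library A, 32873603, is the value on which 23 genes with GENCODE v29 lengths met, and with it 96.6% of 8497 genes had whole lengths. In 449 tested genes reads and length were multiplied by a factor of 2 or more to make the length whole. Gene lengths and reads may be too low by a common factor in some genes, and too high where the true length was not whole. Voom used these reads and totals. Intervals are at 95%. Promoter sequences are RefSeq's (GRCh38.p14), matched by symbol for all 10 genes and 132 of 152 list genes; positions of genes are from GENCODE v29.

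The 10 genes and the lists were chosen with earlier results of these data known. Named list genes are the 3 outside the 10 with the smallest p in each list, and HSPA5, HSP90B1, EIF2AK3 and DNAJB9. PPIB, PSAT1, SEC61A1, SEC61B and SSR4 were named after their voom calls were seen, and HERPUD2 and CREB3 after their values were. The genes with a motif were named by the search. Voom without single libraries, voom with summed reads as totals and GENCODE lengths were alternatives chosen after seeing the data. The values of 1 marker gene are not reported here.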

Additional observations from a re-analysis of the deposited data

How the results depend on the processing

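None of the 10 genes was called in any alternative, and 106 of their 119 values kept their sign. Those that changed sign lay between -0.081 (HYOU1 after quantile normalization) and 0.0082 (ATF4 with median ratio scaling). After rescaling to an equal sum the log2 differences were -0.0092 for XBP1, -0.029 for CALR, -0.0036 for PDIA4 and -0.051 for HYOU1. After quantile normalization they were -0.0036 for XBP1, -0.067 for CALR, -0.0051 for PDIA4 and -0.081 for HYOU1. Median ratio scaling gave 0.0082 for ATF4, and voom -0.00019 for HYOU1. Leaving out a library gave -0.017 to 0.063 for CALR and -0.051 to 0.052 for HYOU1. HSP90B1, which is not among the 10, had -0.036 with equal sums, -0.086 after quantile normalization and -0.016 to 0.048 when a library was left out. The cause was not tested.

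Over all genes 13 were called (1 higher, 12 lower), and 0 with no filter (2295 at an unadjusted p under 0.05), 27 when the mean had to reach 5 FPKM (15 higher), and 3 each with median ratio scaling and with quantile normalization. Voom called 807 (393 higher, 414 lower), or 849 with summed reads as totals. Counts from fits without a library rest on the spread of the group left whole alone. Leaving out a library gave 10 to 1936, the highest when PBS library A was left out, and 421 when PBS library B was. Calls in the lists moved likewise from 0. Voom called 1 sensor, and leaving out a library 0 to 2. The other lists had 4 and 0 to 9 (integrated stress response), 4 and 0 to 7 (chaperones, 1 when the mean had to reach 5 FPKM), 2 and 0 to 6 (degradation), 5 and 0 to 10 (translocation) and 1 and 0 to 4 (outcome); each highest count was without PBS library A. The cause was not tested. No paired analysis was possible because the columns carry letters, which no label ties to the replicate numbers or to a shared culture or day. Depth limits DDIT3, with 155 to 182 reads per library.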
